A study of Mus musculus with 74 samples.

Results

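The Id family comprises Id1, Id2, Id3 and Id4, 4 of the 37620 genes listed in the RNA-seq tables, and its members were chosen by name. Levels of the 4 genes were followed in 35 libraries of mouse embryonic stem (ES) cells in which Nanog, and in some lines Otx2, was switched on or off. All 4 genes passed the filter on low counts in every comparison. Id1 and Id2 rose on LIF withdrawal and fell when SunTag activation of Nanog was induced in the absence of LIF. Id3 rose on LIF withdrawal too, but with the inducer it passed the test only in the presence of LIF, where it rose. With the Nanog guide alone, it passed only when clones were compared within themselves, and not in every such fit. Id4 was low throughout and passed no test, except in alternative fits of 1 comparison.

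Id proteins carry a helix-loop-helix domain without the basic region that binds DNA. They pair with E proteins and so keep these from forming active dimers with tissue-specific basic helix-loop-helix (bHLH) factors. In mouse ES cells the Id genes are known as targets of BMP signalling through Smad1, Smad5 and Smad4, and serum is a source of BMP activity. LIF acts through the receptor complex Lifr/gp130 and Stat3, and LIF and BMP together are known to sustain self-renewal.

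All cells were derivatives of the ES line E14Tg2a grown in serum. SunTag lines carry rtTA and a Dox-dependent activator (dCas9 fused to a GCN4 peptide array, and an antibody fragment fused to VP64), which a constitutive guide RNA brings to a promoter. Nanog SunTag cells (11 libraries) carried the Nanog guide, and Nanog/Otx2 SunTag cells (15 libraries) carried guides for both genes and were subclones of the first. Both were cultured for 3 days with or without LIF (10 ng/mL) and with or without Dox (1 µg/mL). The Nanog set held 3 libraries with LIF and without Dox (+LIF −Dox), 2 with both (+LIF +Dox), 3 with neither (−LIF −Dox) and 3 with Dox alone (−LIF +Dox). The Nanog/Otx2 set held 3, 4, 4 and 4 libraries in the same order. Each set was made from 2 parental SunTag clones, with 1 line per clone (C1 and C2, or C1ON3 and C2ON3), so a condition rests on 2 lines. 44iN cells are Nanog-null cells with a Dox-dependent Nanog transgene, sampled in Dox (2 libraries), at 24 h without Dox (2) and after prolonged growth without Dox (LT, 2), all in LIF. Wild-type E14Tg2a cells in serum and LIF (Tg2a FCS) gave 3 libraries. Every SunTag control without Dox still carried the activator and its guides, and nothing in the labels says that libraries of a line came from separate cultures, so p-values measure the spread between these libraries, which may be partly technical.

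The guides that drove the inductions are shown because every SunTag comparison starts from them (mm9, 5′ to 3′, with the NGG motif next to the target in capitals). The Nanog guide matched chr6:122657269-122657288 on the plus strand, its centre 228.5 bases upstream of the nearest annotated Nanog transcript start, with 20 of the 21 oligo bases matching and the first base unmatched. The Otx2 guide matched chr14:49282649-49282668 on the minus strand, 111.5 bases upstream of 1 of the 7 annotated Otx2 transcript starts.
Nanog guide: cttcccactagagatcgccaGGG
Otx2 guide: aatgtagagcgtgcatttggAGG

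The Id genes lie on 4 chromosomes in mm9. Id1 (ENSMUSG00000042745) spans chr2:152561987-152563146 on the plus strand and Id2 (ENSMUSG00000020644) spans chr12:25778666-25780957 on the minus strand. Id3 (ENSMUSG00000007872) spans chr4:135699412-135701670 and Id4 (ENSMUSG00000021379) spans chr13:48356796-48359405, both on the plus strand. Promoter windows of 300 bases, from 250 before to 50 after the start, were matched in RefSeq (GRCm38.p6) for 3 of the 4 members, and Id1 was the member not matched. They are shown because the genes moved in part together and in part apart. The Id2 window was chr12:25096043-25096342 (minus strand), the Id3 window chr4:136143572-136143871 and the Id4 window chr13:48260866-48261165 (both plus strand). Capitals mark GGCGCC, a GC-rich element that Smads can bind, and the E-boxes CAGCTG and CACCTG, which E protein dimers can bind.
Id2 promoter window: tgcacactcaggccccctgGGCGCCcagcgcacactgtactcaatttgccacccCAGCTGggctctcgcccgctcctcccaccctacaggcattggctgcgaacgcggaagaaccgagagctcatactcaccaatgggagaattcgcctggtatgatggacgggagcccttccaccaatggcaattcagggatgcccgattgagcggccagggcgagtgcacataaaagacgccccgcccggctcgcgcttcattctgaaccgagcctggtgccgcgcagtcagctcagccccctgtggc
Id3 promoter window: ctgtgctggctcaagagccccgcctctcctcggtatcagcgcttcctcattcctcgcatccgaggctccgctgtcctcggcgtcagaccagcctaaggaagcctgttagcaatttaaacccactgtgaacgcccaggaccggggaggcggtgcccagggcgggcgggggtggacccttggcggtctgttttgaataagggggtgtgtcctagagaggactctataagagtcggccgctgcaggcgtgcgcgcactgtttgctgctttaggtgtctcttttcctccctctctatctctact
Id4 promoter window: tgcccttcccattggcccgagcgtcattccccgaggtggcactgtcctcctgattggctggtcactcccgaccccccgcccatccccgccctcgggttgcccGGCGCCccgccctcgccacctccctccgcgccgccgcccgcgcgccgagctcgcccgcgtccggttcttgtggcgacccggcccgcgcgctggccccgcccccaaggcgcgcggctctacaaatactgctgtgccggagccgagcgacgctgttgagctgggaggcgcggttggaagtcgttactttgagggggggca

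The windows were richer in G and C than the median of all promoter windows, with 63.3% in Id2, 60% in Id3 and 73.3% in Id4 against 52.7%. On either strand, GGCGCC occurred 1 time in the Id2 window (first base at position 20, counted from 1 at the 5′ end) and 1 time in the Id4 window (position 103), and not in the Id3 window. It was present in 11.9% of 32817 windows. The Id2 window held 1 CAGCTG (position 55), a motif in 16.3% of all windows, and CACCTG, in 20.2% of all windows, was in none of the 3. The 4-letter Smad box AGAC occurred 1 time in the Id2 window and 3 times in the Id3 window but lay in 88.0% of all windows. TTCNNNGAA, the Stat element, was in none of the 3 windows and in 8.29% of all. These matches describe letters in the windows only.

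Values are normalised counts, the estimated reads of a gene divided by 1 size factor per library, and no member was at 0 in any library. Over the 35 libraries Id1 had a mean of 599 (139.7 to 2581), Id2 of 644 (164 to 1995), Id3 of 443 (17.7 to 1781) and Id4 of 52.1 (25.1 to 115). In absolute counts Id1 had the widest range and Id4 the narrowest. Per kilobase of exon, the mean normalised count was 516 for Id1, 507 for Id2, 247 for Id3 and 31.4 for Id4. Id4 was the lowest member per kilobase in 28 libraries and Id3 in the other 7, and the highest was Id1 in 17, Id2 in 14 and Id3 in 4. When the 12 conditions were ordered by their mean, few neighbours were separate. The ranges of neighbours in this order overlapped in all 11 steps for Id1 and Id4, in 10 for Id2 and in 9 for Id3. The separate steps of Id3 were from Nanog +LIF +Dox to Nanog −LIF +Dox, and from Nanog/Otx2 +LIF −Dox to Nanog/Otx2 +LIF +Dox. Raw counts of Id4 were between 9 and 209 per library and the lowest count of Id3 was 6, so the smallest differences of these genes were not detectable at this depth.

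LIF withdrawal in the absence of Dox raised 3 of the 4 Id genes with either guide set. In Nanog SunTag cells Id2 had 281, 355 and 243 normalised counts in +LIF −Dox (C1-1, C2-1 and C2-2) and 1146, 1494 and 1995 in −LIF −Dox (C1-1, C1-2 and C2-1). Every library without LIF lay above every library with LIF. The log2 fold change, with its standard error (SE) after ±, was 2.38 ± 0.29 (adjusted p = 8.22e-05). Adjusted p-values here and below are those of edgeR's quasi-likelihood F-test, corrected over all genes of the model, and genes with an adjusted p under 0.05 are said to be called. Of all 15624 genes tested, 41.5% were called in this comparison, 20.2% higher and 21.3% lower without LIF. Lack of overlap between groups, here and below, describes the libraries and is not a test. The share of all genes whose groups did not overlap was not counted.

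Id3 had 42.8, 95.5 and 77.4 normalised counts in +LIF −Dox and 223, 251 and 558 in −LIF −Dox, in the same order of libraries. The groups did not overlap, and the log2 fold change was 2.22 ± 0.43 (SE, adjusted p = 0.00179). Id1 had 225, 382 and 287 in LIF and 527, 611 and 1073 without it. The Id1 groups did not overlap either, with a log2 fold change of 1.29 ± 0.39 (SE, adjusted p = 0.0205). This call of Id1 was lost without +LIF −Dox C2-2 (1.26, adjusted p = 0.0594) and without −LIF −Dox C2-1 (0.93, adjusted p = 0.0851). Id4 had 42.8, 25.1 and 44.9 in LIF and 48.9, 68.5 and 65.2 without, and was not called (log2 fold change 0.67, standard error 0.33, adjusted p = 0.129).

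In Nanog/Otx2 SunTag cells the same 3 genes rose. Id1 had 363, 715 and 787 normalised counts in +LIF −Dox (C1ON3-1, C1ON3-2 and C2ON3-1) and 1012, 1219, 2581 and 2160.2 in −LIF −Dox (C1ON3-1, C1ON3-2, C2ON3-1 and C2ON3-2). Id2 had 391, 325 and 282 in LIF and 755, 886, 1904 and 1718 without. Id3 had 535, 293 and 278 in LIF and 679, 733, 1781 and 1259 without. In none of these 3 genes did the groups overlap, and the libraries of clone C2ON3 without LIF were the highest. The log2 fold changes were 1.48 for Id1 (standard error 0.39, adjusted p = 0.00504), 1.93 for Id2 (0.32, adjusted p = 0.000168) and 1.52 for Id3 (0.35, adjusted p = 0.00226). Id4 overlapped between the groups, at 41.7 to 74.4 in LIF and 33.0 to 82.4 without (log2 fold change −0.05, standard error 0.35, adjusted p = 0.922). Of 15609 genes tested, 49.8% were called, 24.6% higher and 25.2% lower. The summed level of 9 ES cell markers, Nanog among them and none at 0, moved with this comparison. It went from between 165002 and 178785 to between 44656 and 51252 in the Nanog set. In the Nanog/Otx2 set it went from between 182801 and 212803 to between 73652 and 87442. A sum of 7 primitive streak markers went from 172 to 282 counts to 513 to 676 in the Nanog set and from 140.2 to 189.8 to 255 to 353 in the other, while 5 trophoblast markers went from 1133 to 1780.2 down to 219.8 to 358 and from 1063 to 1583 down to 238 to 346. The part of these cells and states in the rise of the Id genes was not tested. In bulk RNA a change in the number of cells that express a gene and a change in RNA per cell cannot be told apart.

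**Figure D1:**
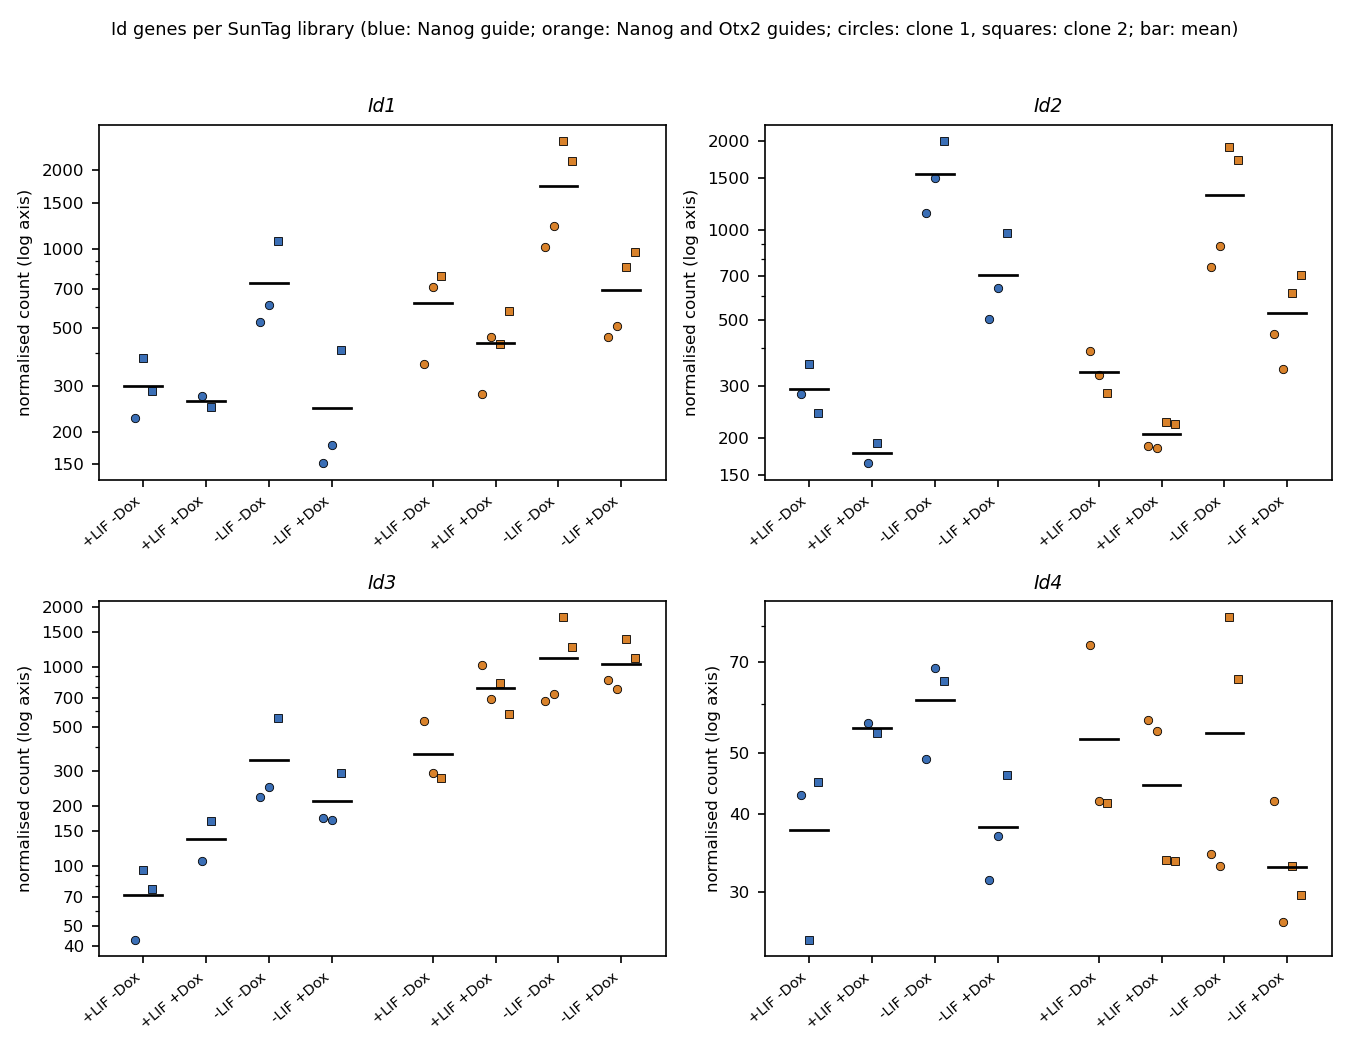
Normalised counts (log axis) of the 4 Id genes in each SunTag library, by LIF and Dox, with Nanog guide libraries in blue, Nanog/Otx2 libraries in orange, circles for clone 1 lines, squares for clone 2 lines and bars for condition means. Id1 and Id2 are highest in −LIF −Dox and lower in −LIF +Dox, whereas the Id3 means of Nanog/Otx2 cells without LIF are 1113 without Dox and 1033 with Dox.

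Dox in the absence of LIF lowered Id1 and Id2 in both guide sets. In Nanog SunTag cells Id1 had 527, 611 and 1073 normalised counts in −LIF −Dox and 151, 178 and 409 in −LIF +Dox (C1-1, C1-1b and C2-2). Both C1 libraries with Dox carried the same number in their titles, and the suffix b was added here to tell them apart. Id2 had 1146, 1494 and 1995 without Dox and 502, 637 and 976 with Dox. The groups did not overlap in either gene, and in each group the clone C2 library was the highest. Id1 fell with a log2 fold change of −1.55 ± 0.39 (SE, adjusted p = 0.0405) and Id2 with −1.10 (0.27, adjusted p = 0.0382). Among all genes 5.14% were called, of which 3.6% rose and 1.54% fell as shares of the genes tested. With the clone as a block, which compares within each clone, Id1 was −1.60 (standard error 0.26, adjusted p = 0.00299). Id2 was −1.12 there (0.21, adjusted p = 0.00647), and 1375 of 15624 genes were called. In the fit without a block both p-values lie close to the threshold and depended on single libraries. Without 1 library at a time, the Id1 value ranged from −2.13 to −1.17 and passed in 3 of 11 fits (adjusted p = 0.00659 to 0.188). It did not pass without either +LIF +Dox library, without +LIF −Dox C2-2, without any of the 3 −LIF −Dox libraries, or without −LIF +Dox C1-1 or C1-1b. The Id2 value ranged from −1.41 to −0.86 and passed in 6 of 11 fits (adjusted p = 0.0148 to 0.181), and not without any of the 3 −LIF −Dox libraries or without −LIF +Dox C1-1 or C1-1b.

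Id3 and Id4 were not called in the same comparison. Id3 had 223, 251 and 558 normalised counts without Dox and 175, 171 and 295 with Dox, so that the groups overlapped. Its log2 fold change was −0.66 ± 0.39 (SE, 95% interval −1.52 to 0.20, adjusted p = 0.428). Id4 had 48.9, 68.5 and 65.2 without Dox and 31.3, 36.9 and 46.1 with Dox (log2 fold change −0.65, standard error 0.32, adjusted p = 0.315), and its groups did not overlap.

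In Nanog/Otx2 SunTag cells Id1 had 1012, 1219, 2581 and 2160.2 normalised counts in −LIF −Dox and 461, 506, 854 and 970.0 in −LIF +Dox, ordered C1ON3-1, C1ON3-2, C2ON3-1 and C2ON3-2. Id2 had 755, 886, 1904 and 1718 without Dox and 449, 342, 613 and 706 with Dox. The groups did not overlap in either gene. Id1 fell with a log2 fold change of −1.28 ± 0.34 (SE, adjusted p = 0.0187) and Id2 with −1.28 (0.28, adjusted p = 0.00591). The share of all genes called was 17.3%, with 11.2% rising and 6.15% falling. The call of Id1 was lost without −LIF −Dox C2ON3-1 (−1.03, adjusted p = 0.0694), −LIF +Dox C1ON3-1 (−1.12, adjusted p = 0.0553) or −LIF +Dox C1ON3-2 (−1.16, adjusted p = 0.0625), and that of Id2 was lost in none of the 15 fits.

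Id3 in these cells had 679, 733, 1781 and 1259 normalised counts without Dox and 859, 774, 1387 and 1113 with Dox. The groups overlapped, and the values with Dox were higher in both C1ON3 libraries and lower in both C2ON3 libraries. The log2 fold change was −0.07 ± 0.31 (SE, 95% interval −0.72 to 0.58, adjusted p = 0.908). Id4 had 33.0 to 82.4 without Dox and 26.9 to 41.9 with Dox (log2 fold change −0.67, standard error 0.33, adjusted p = 0.181). The ES cell marker sum was higher with Dox, between 113150 and 132921 in the Nanog set and between 132882 and 142219 in the Nanog/Otx2 set without LIF. This sum includes the induced gene Nanog, with means of 5916 without and 51805 with Dox in the Nanog set. In the Nanog/Otx2 set the Nanog means were 4425 and 39530. The sum without Nanog was not computed. In the Nanog set, extraembryonic endoderm markers were lower with Dox (683 to 956 against 1567 to 1829) and trophoblast markers higher (558 to 819 against 219.8 to 358). In the Nanog/Otx2 set, fibroblast markers were higher (683 to 878 against 368 to 637). The part of these markers in the Id results was not tested.

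The fall of Id1 and Id2 was seen in each of the 4 lines. The difference of mean log2 levels between −LIF +Dox and −LIF −Dox was −1.78 in C1, −1.39 in C2, −1.20 in C1ON3 and −1.37 in C2ON3 for Id1. For Id2 it was −1.21, −1.03, −1.06 and −1.46 in the same order. For Id3 it was −0.45, −0.92, 0.21 and −0.27, with no common direction. With 1 or 2 libraries per line and condition, these values have no test of their own.

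In the presence of LIF, Id3 was the only member called higher with Dox. In Nanog/Otx2 SunTag cells it had 535, 293 and 278 normalised counts in +LIF −Dox and 1029, 690.4, 831 and 583 in +LIF +Dox (C1ON3-1, C1ON3-2, C2ON3-1 and C2ON3-2). All 4 libraries with Dox were above the 3 without. The log2 fold change was 1.07 ± 0.35 (SE, adjusted p = 0.0396), and 22.9% of genes were called. The call was lost without +LIF −Dox C1ON3-2 (0.90, adjusted p = 0.161), +LIF −Dox C2ON3-1 (0.94, adjusted p = 0.096), +LIF +Dox C1ON3-1 (0.90, adjusted p = 0.0978) or +LIF +Dox C2ON3-1 (1.04, adjusted p = 0.0794).

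With the Nanog guide alone, Id3 had 42.8, 95.5 and 77.4 normalised counts in +LIF −Dox and 106 and 169 in +LIF +Dox (C1-1 and C2-1). The libraries with Dox again lay above those without. The log2 fold change was 0.91 ± 0.46 (SE, adjusted p = 0.397), and 0.563% of genes were called. With the clone as a block, which compares Dox with no Dox within each clone, it was 1.10 (standard error 0.23, adjusted p = 0.0393), with 1.88% of genes called. With the clone and the column numbers as the block, chosen after seeing the data, it was 0.97 and not called (adjusted p = 0.25). Between +LIF +Dox and +LIF −Dox the mean log2 levels of Id3 differed by 1.29 in C1, 0.96 in C2, 1.09 in C1ON3 and 1.32 in C2ON3. The summed level of 6 fibroblast markers was also higher with Dox in LIF, at 864 to 1050.4 against 246 to 676 in the Nanog set and at 913 to 1143 against 289 to 481 in the Nanog/Otx2 set. Of the 6, between 0 and 2 were at 0 in all libraries of a group. The sum of 7 primitive streak markers moved in the same way, at 579 to 789 against 172 to 282 in the Nanog set and at 249.9 to 368 against 140.2 to 189.8 in the other. The ES cell sum was higher with Dox in the Nanog set (199344 to 252918 against 165002 to 178785) and overlapped in the other, where 5 neural markers were lower (2509 to 2877 against 3135 to 3976). That ES cell sum includes Nanog, the induced gene, whose mean in the Nanog set went from 24924 to 84519. The sum without Nanog was not computed. The part of these markers' cells and states in the Id3 level was not tested.

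Id1 and Id2 were not called with Dox in LIF. With the Nanog guide alone, Id1 had 225, 382 and 287 normalised counts without Dox and 274 and 249 with Dox (log2 fold change −0.20, standard error 0.44, adjusted p = 0.863). Id2 had 281, 355 and 243 without Dox and 164 and 192 with Dox (−0.73, standard error 0.32, adjusted p = 0.336). The Id1 groups overlapped and the Id2 groups did not. With both guides Id1 had 363, 715 and 787 without Dox and 278, 458, 434 and 579 with Dox (−0.46, standard error 0.37, adjusted p = 0.404). Id2 there had 391, 325 and 282 without Dox and 188, 185, 226 and 223 with Dox (−0.69, standard error 0.31, adjusted p = 0.122), with no overlap. With the clone and its replicate number as the block, both were called lower, Id1 at −0.65 (adjusted p = 0.0101) and Id2 at −0.95 (adjusted p = 0.00586), in a fit that called 41% of all genes. With the Nanog guide Id4 had 42.8, 25.1 and 44.9 without Dox and 56.0 and 53.8 with Dox. These Id4 groups did not overlap, but the gene was not called (log2 fold change 0.53, adjusted p = 0.548). Its mean log2 levels differed by 0.38 in C1 and 0.66 in C2. With both guides the Id4 groups overlapped (−0.29, adjusted p = 0.596).

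Whether the response to Dox depended on LIF was tested as the interaction of the 2 factors. In Nanog SunTag cells the log2 response without LIF minus that with LIF was −1.35 for Id1 (standard error 0.57, adjusted p = 0.288), −0.38 for Id2 (0.42, adjusted p = 0.727), −1.57 for Id3 (0.61, adjusted p = 0.24) and −1.17 for Id4 (0.49, adjusted p = 0.278). No member was called, where 1.93% of genes were. With the clone as a block Id1 (−1.59, adjusted p = 0.0438) and Id3 (−1.69, adjusted p = 0.0103) were called, and 4.54% of all genes. With both guides the values were −0.82, −0.58, −1.13 and −0.38 for Id1 to Id4. None of these was called (adjusted p = 0.384, 0.472, 0.151 and 0.737), against 9.7% of genes.

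Induced cells without LIF were also set against uninduced cells with LIF, to ask whether induction brought each gene back to its level in LIF. In Nanog SunTag cells Id1 was not called (log2 difference −0.27, 95% interval −1.11 to 0.58, adjusted p = 0.634), whereas Id2 (1.28, standard error 0.28, adjusted p = 0.00653) and Id3 (1.56, standard error 0.42, adjusted p = 0.0184) were above their level in LIF. The call of Id3 was lost without +LIF −Dox C2-2 (1.61, adjusted p = 0.0539) or −LIF +Dox C2-2 (1.27, adjusted p = 0.0614). Id4 differed by 0.02 (adjusted p = 0.967), and 28.1% of genes were called. In Nanog/Otx2 SunTag cells Id3 was higher (1.46, standard error 0.35, adjusted p = 0.0037), and Id1 (0.20, 95% interval −0.60 to 1.00, adjusted p = 0.692), Id2 (0.65, interval −0.02 to 1.31, adjusted p = 0.103) and Id4 (−0.72, interval −1.48 to 0.05, adjusted p = 0.115) were not called. There 45.3% of genes were called. These comparisons share their control libraries with those above.

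**Figure D2:**
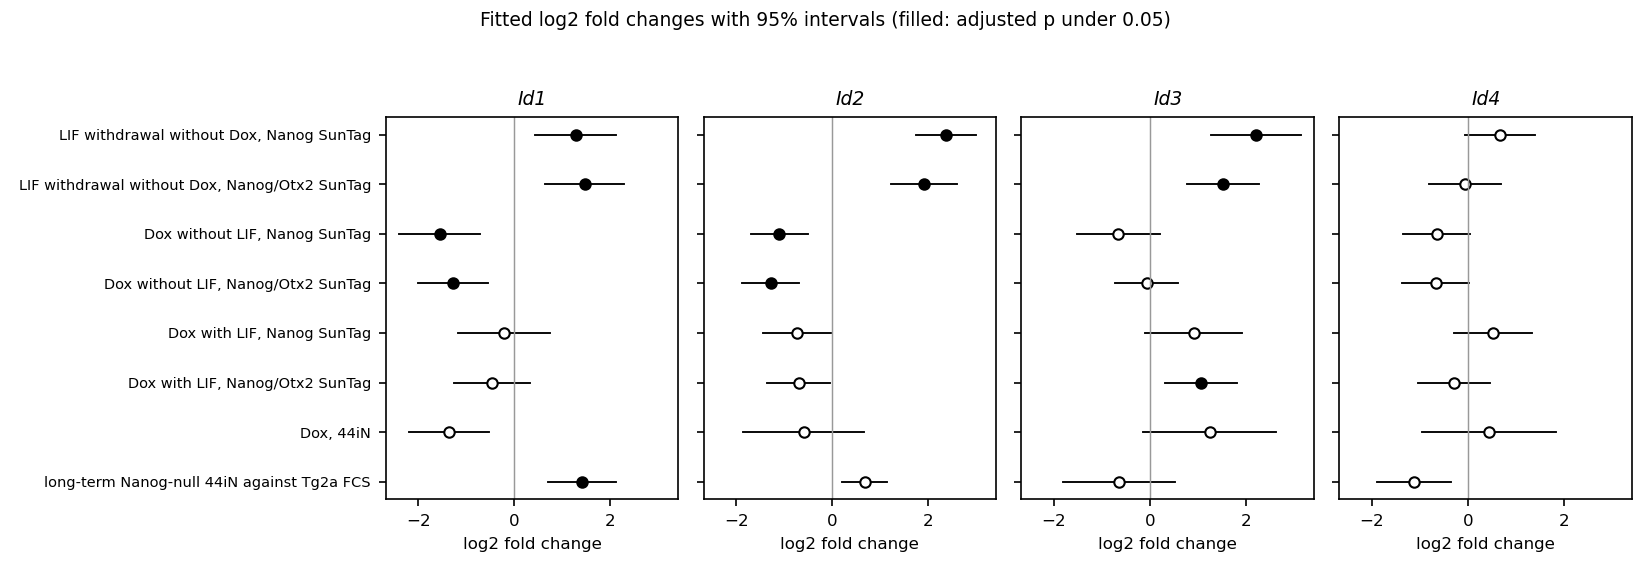
Fitted log2 fold changes of the 4 Id genes in 8 comparisons, with 95% intervals as lines and filled points for an adjusted p under 0.05. Id1 and Id2 lie right of 0 for LIF withdrawal and left of 0 for Dox without LIF, whereas Id3 lies at 0.91 and 1.07 for Dox with LIF and Id4 has open points throughout.

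The 2 guide sets differed in the level of Id1 and Id3, and no difference in their response to Dox was called. In −LIF +Dox, Id3 had 171 to 295 normalised counts in Nanog cells and 774 to 1387 in Nanog/Otx2 cells, and Id1 had 151 to 409 and 461 to 970.0. The direct difference in that condition was 2.21 for Id3 (adjusted p = 0.000139) and 1.44 for Id1 (adjusted p = 0.00668), in a comparison that called 41% of all genes. A gap was also present before induction, with 42.8 to 95.5 counts of Id3 in Nanog +LIF −Dox against 278 to 535 in Nanog/Otx2 +LIF −Dox. The guide, the subclones that carry it and the set in which the libraries were made cannot be told apart here. Tested as a difference of the Dox responses without LIF in all 26 SunTag libraries, no member was called, with 0.23 for Id1 (adjusted p = 0.961), −0.22 for Id2 (0.949), 0.54 for Id3 (0.923) and −0.07 for Id4 (0.988). Of all genes, 0.0308% were called.

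The lines of the 2 parental clones differed in Id level within a condition. Id1, Id2 and Id3 were each higher in every clone 2 library than in every clone 1 library in 6 of the 8 SunTag conditions, and lower in 1. In −LIF −Dox of Nanog/Otx2 cells, for example, Id1 had a mean of 1116 in C1ON3 and 2370.4 in C2ON3, and Id3 of 706 and 1520.0. Nanog itself went the other way, with every clone 1 library above every clone 2 library in 7 of 8 conditions, and means of 6597 and 2253 in that example. Id4 showed no such order, being higher in clone 1 in 3 conditions, higher in clone 2 in 2 and overlapping in 3. With 1 or 2 libraries per clone and condition this is a description without a test, and 1 library against 1 (Nanog +LIF +Dox) always separates. The same lines recur across the conditions, and the share of all genes ordered in this way was not counted.

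In 44iN cells, which have no endogenous Nanog and no SunTag activator, Id1 was lower and Id3 higher in both libraries with Dox than in either without, and neither passed the test. Id1 had 195 and 185 normalised counts with Dox and 617 and 425.9 at 24 h without it. Id3 had 78.3 and 59.1 with Dox and 43.2 and 17.7 without. Neither gene overlapped between the groups, which with 2 libraries a group is a description only. The lower Id3 values rest on 18 and 6 reads. The log2 fold change of Dox over no Dox was −1.36 for Id1 (standard error 0.34, adjusted p = 0.435) and 1.25 for Id3 (0.56, adjusted p = 0.76). Id2 (469.7 and 196 with Dox, 694 and 373 without, adjusted p = 0.784) and Id4 (115 and 52.9 with Dox, 84.0 and 47.3 without, adjusted p = 0.801) overlapped. With 2 libraries a group edgeR called 0 of 14376 genes (0%), with 1023 at an unadjusted p under 0.05, and DESeq2 called 141. Id1 was called without +Dox 1 (−1.39, adjusted p = 0.00979) and without +Dox 2 (−1.36, adjusted p = 0.0324), and Id2 without +Dox 1 (−1.34, adjusted p = 0.0119), fits in which the lone remaining library is assumed to vary like the others and which called 22.6% (without +Dox 1) and 2.47% (without +Dox 2) of all genes. Primitive streak markers (547 to 579.6 with Dox, 365 to 379 without) and fibroblast markers (200.1 to 264 and 136 to 156) were higher with Dox, and their part was not tested. Id4 turned to −0.22 without +Dox 1.

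Long-term Nanog-null cells had more Id1 than wild-type cells. Id1 had 669.6 and 495 normalised counts in 44iN LT and 139.7, 196 and 287 in Tg2a FCS, with no overlap. The log2 difference was 1.41 (standard error 0.31, adjusted p = 0.0317), and 8.61% of 14937 genes were called. The call was lost without LT 1 (1.16, adjusted p = 0.318), LT 2 (1.57, adjusted p = 0.159) or Tg2a 2 (1.39, adjusted p = 0.107). Id2 had 1146 and 784 in LT cells and 574, 617 and 519 in wild-type cells (0.68, standard error 0.21, adjusted p = 0.0815), and Id4 37.4 and 41.5 against 99.8, 81.6 and 62.3 (−1.12, standard error 0.33, adjusted p = 0.0763). Neither of these overlapped or was called, but Id4 was called without Tg2a 3 (−1.29, adjusted p = 0.0219), a fit that called 17.4% of genes. Id3 overlapped, at 63.3 and 37.5 against 51.0, 42.8 and 129 (−0.64, standard error 0.51, adjusted p = 0.465). Without Tg2a 3 its difference was 0.023. A sum of extraembryonic endoderm markers was high in both groups, at 6370.4 to 9609 in LT cells and 5114 to 7382 in wild-type cells, against 151 to 2052 in the other conditions. Sums of ES cell (92609 to 101470 against 141748 to 159337), neural (995 to 1316 against 2008 to 2536), trophoblast (643 to 825 against 1098 to 1199) and fibroblast markers (107.6 to 121.3 against 177 to 592) were lower in LT cells without overlap, and their part in the Id differences was not tested. The ES cell sum includes Nanog, whose mean was 252 in LT cells and 19714 in wild-type cells. Selection with G418, time in culture and loss of Nanog cannot be told apart in this comparison.

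**Figure D3:**
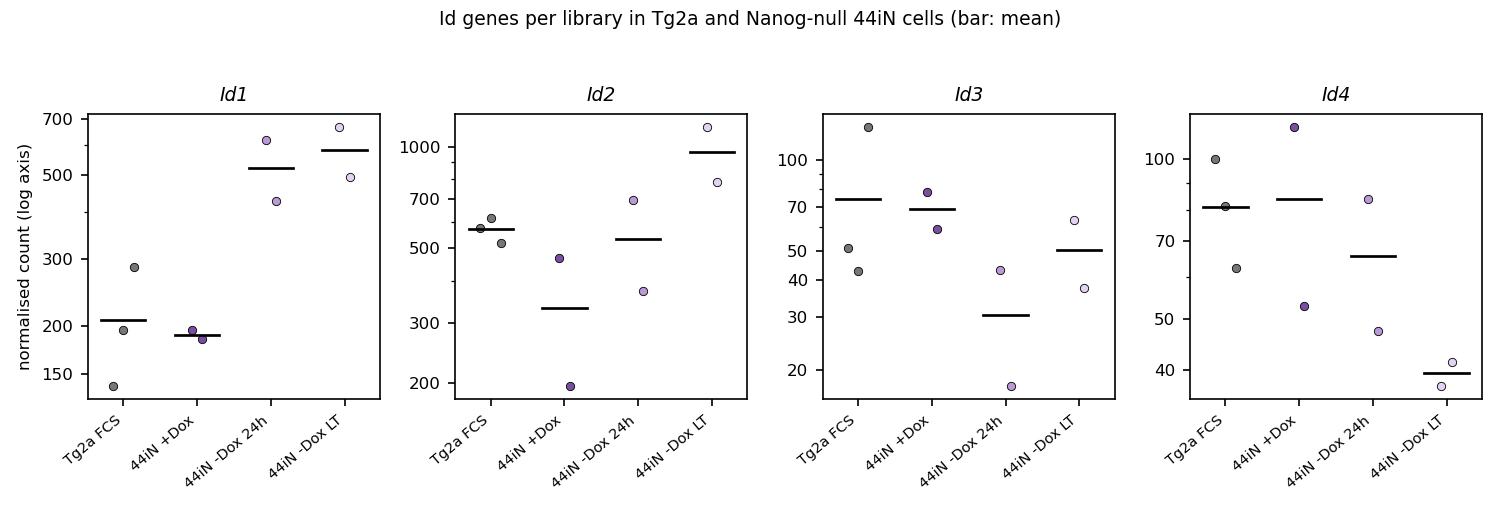
Normalised counts (log axis) of the 4 Id genes per library in wild-type Tg2a cells and in 44iN cells in Dox, at 24 h without Dox and in the LT state, with bars for means. Id1 lies at 185 and 195 with Dox and at 425.9 or more in every 44iN library without Dox, whereas the mean of Id3 is lowest at 24 h without Dox (30.5).

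The divergence of Id3 from Id1 can be read within each library, which removes any factor common to both. The measure, log2 of (Id3 + 1)/(Id1 + 1) in normalised counts, was chosen after the values were seen, so no test is attached. Without LIF, Nanog SunTag libraries had a ratio of −1.15 ± 0.18 (SD, n = 3) without Dox and −0.11 ± 0.34 (n = 3) with Dox. Nanog/Otx2 SunTag libraries without LIF had a ratio of −0.66 ± 0.12 (n = 4) and 0.60 ± 0.29 (n = 4). In neither did the libraries with and without Dox overlap. With LIF the values were −2.08 ± 0.26 (n = 3) and −0.96 ± 0.56 (n = 2) with the Nanog guide, and −0.74 ± 1.13 (n = 3) and 0.85 ± 0.79 (n = 4) with both guides, where library C1ON3-1 without Dox (0.56) lay among those with Dox. In 44iN cells the 2 libraries without Dox were at −3.81 and −4.51 and the 2 with Dox at −1.31 and −1.63. The mean was thus higher with Dox in all 5 pairs of conditions, by 1.04, 1.26, 1.12, 1.60 and 2.69 in the order given. A higher ratio was not particular to Dox. LIF withdrawal without Dox raised the mean by 0.92 with the Nanog guide, where the libraries did not overlap. With both guides LIF withdrawal changed it by 0.09, with overlap.

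**Figure D4:**
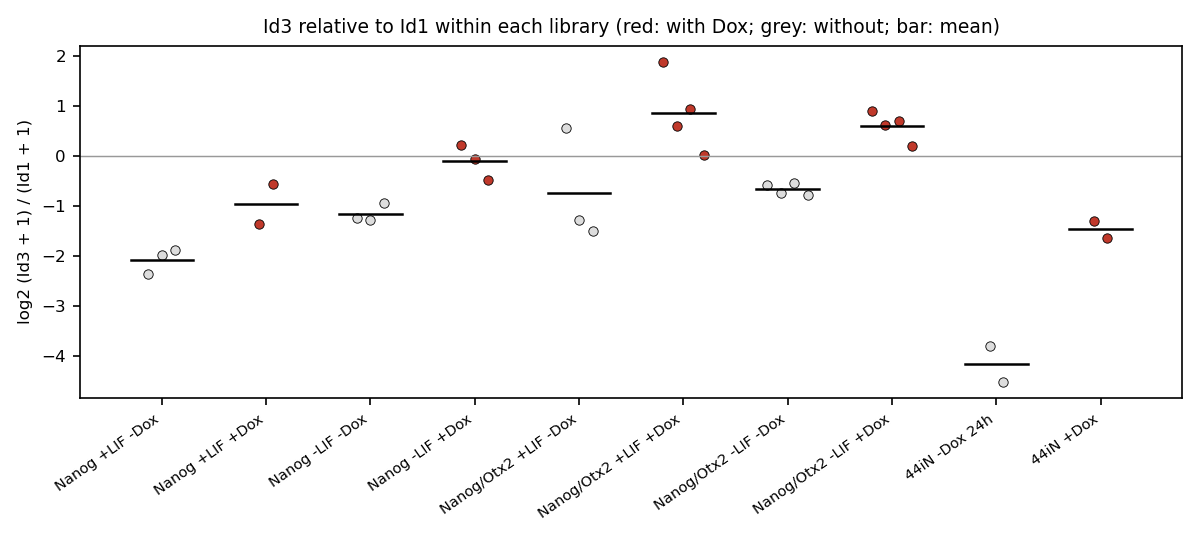
Log2 ratio of Id3 to Id1 (normalised count plus 1) in each library, with Dox in red, without Dox in grey and bars for condition means. The red points lie above the grey points of the same cells and LIF condition except in Nanog/Otx2 cells with LIF, where 1 grey point lies at 0.56.

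The genes of the BMP pathway upstream of the Id genes were read from lists chosen by function. Of the 6 BMP receptors, 5 were called higher and 0 lower on LIF withdrawal in either guide set, with a median log2 fold change of 1.79 with the Nanog guide and 0.82 with both guides. Of all genes, 20.2% were higher and 21.3% lower with the Nanog guide and 24.6% and 25.2% with both guides, and the median of all genes tested was between −0.05 and 0.04 in every comparison with all libraries. Bmpr1b, a type I receptor, had values of 2.94 and 2.12, Acvr1, another type I receptor, of 1.27 and 1.71, and Acvr2b, a type II receptor, of 2.47 and 0.85. Of the 7 ligands, 5 were tested with the Nanog guide and 4 with both guides. Bmp8b rose (1.42 and 1.49), and Bmp4 (−2.52 and −2.84) and Bmp7 (−1.31 and −1.49) fell, with medians of −0.62 and −0.44 over the tested ligands. Bmp4 thus moved against the Id genes, from 655 ± 129 to 116 ± 15.8 normalised counts (SD, n = 3 and 3) with the Nanog guide. Of the 4 Smads that carry the BMP signal, Smad4, the common partner, was higher in both sets (0.86 and 0.67) and Smad1 with both guides (0.46), with medians of 0.34 and 0.26 and none lower.

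Among the 10 antagonists and inhibitors of the pathway, 9 and 8 were tested, of which 2 rose and 3 fell on LIF withdrawal in each set, with medians of −0.05 and −0.20. These shares are near those of all genes in both directions (20.2% and 21.3% with the Nanog guide, 24.6% and 25.2% with both guides). Fst, which encodes the activin and BMP antagonist follistatin, rose (2.53 and 2.54), as did the ubiquitin ligase gene Smurf2 (0.81 and 0.29). Chrd, the gene of the secreted BMP antagonist chordin, fell (−1.66 and −0.93), as did the inhibitory Smad gene Smad7 (−0.70 and −1.22) and Tob1 (−0.66 and −0.80). Other transcription factor genes that respond to BMP were in part near 0 counts. Msx1 had 3.88 ± 2.28 normalised counts in Nanog +LIF −Dox, 99.3 ± 35.3 in −LIF −Dox and 18.8 ± 10.3 in −LIF +Dox (SD, n = 3 each), and Dlx5 was at 0, 23.3 ± 10.1 and 5.43 ± 5.01. Msx1 in both sets and Dlx5 in the Nanog set passed the filter only through libraries without LIF, where they are high, so they are given as values and not counted as calls, and no median is given for this list. Of its other members, Hey1 rose on LIF withdrawal with the Nanog guide (1.10) and Gata2 with both guides (0.86).

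With Dox without LIF, where 5.14% of all genes were called with the Nanog guide and 17.3% with both guides, Bmp4 rose (1.43 and 1.06), and Bmp6 (1.08) rose with both guides. Fst fell in both sets (−2.44 and −2.09), and Msx1 and Dlx5 are again not counted as calls. Of the 6 receptors, 0 were called with the Nanog guide, and Bmpr1a, a type I receptor, was lower with both guides (−0.34), with medians of −0.14 in both sets. The tested ligands had medians of 0.23 and 0.97, the antagonists of −0.14 and 0.01, and the Smads of −0.25 and −0.08. None of the 4 Smads was called in either set, and Smad7 (0.88) and Msx2 (1.39) were higher with both guides.

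The partners of the Id proteins were read in the same way. The E protein genes Tcf3 (0.81 and 0.48) and Tcf12 (1.33 and 1.17) rose on LIF withdrawal, and Tcf4 was not called (0.18 and −0.23). With Dox without LIF none of the 3 was called, with values of −0.38 and −0.09 for Tcf3, −0.14 and −0.12 for Tcf4, and −0.13 and −0.15 for Tcf12. Of 14 tissue-specific bHLH genes, 8 and 6 were tested. With the Nanog guide the shares called on LIF withdrawal were near those of all genes given above. On LIF withdrawal Tal1 rose (0.94) and Mesp2 (−1.51) and Tcf15 (−1.02) fell with the Nanog guide, and Twist1 rose (0.88) with both guides, where the median was −0.42. No median is given for the Nanog guide because Hand1 had at most 3 counts in each +LIF −Dox library. Dox without LIF lowered Neurod1 with both guides (−1.24, where the median was −0.36) and changed none past the threshold with the Nanog guide.

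**Figure D5:**
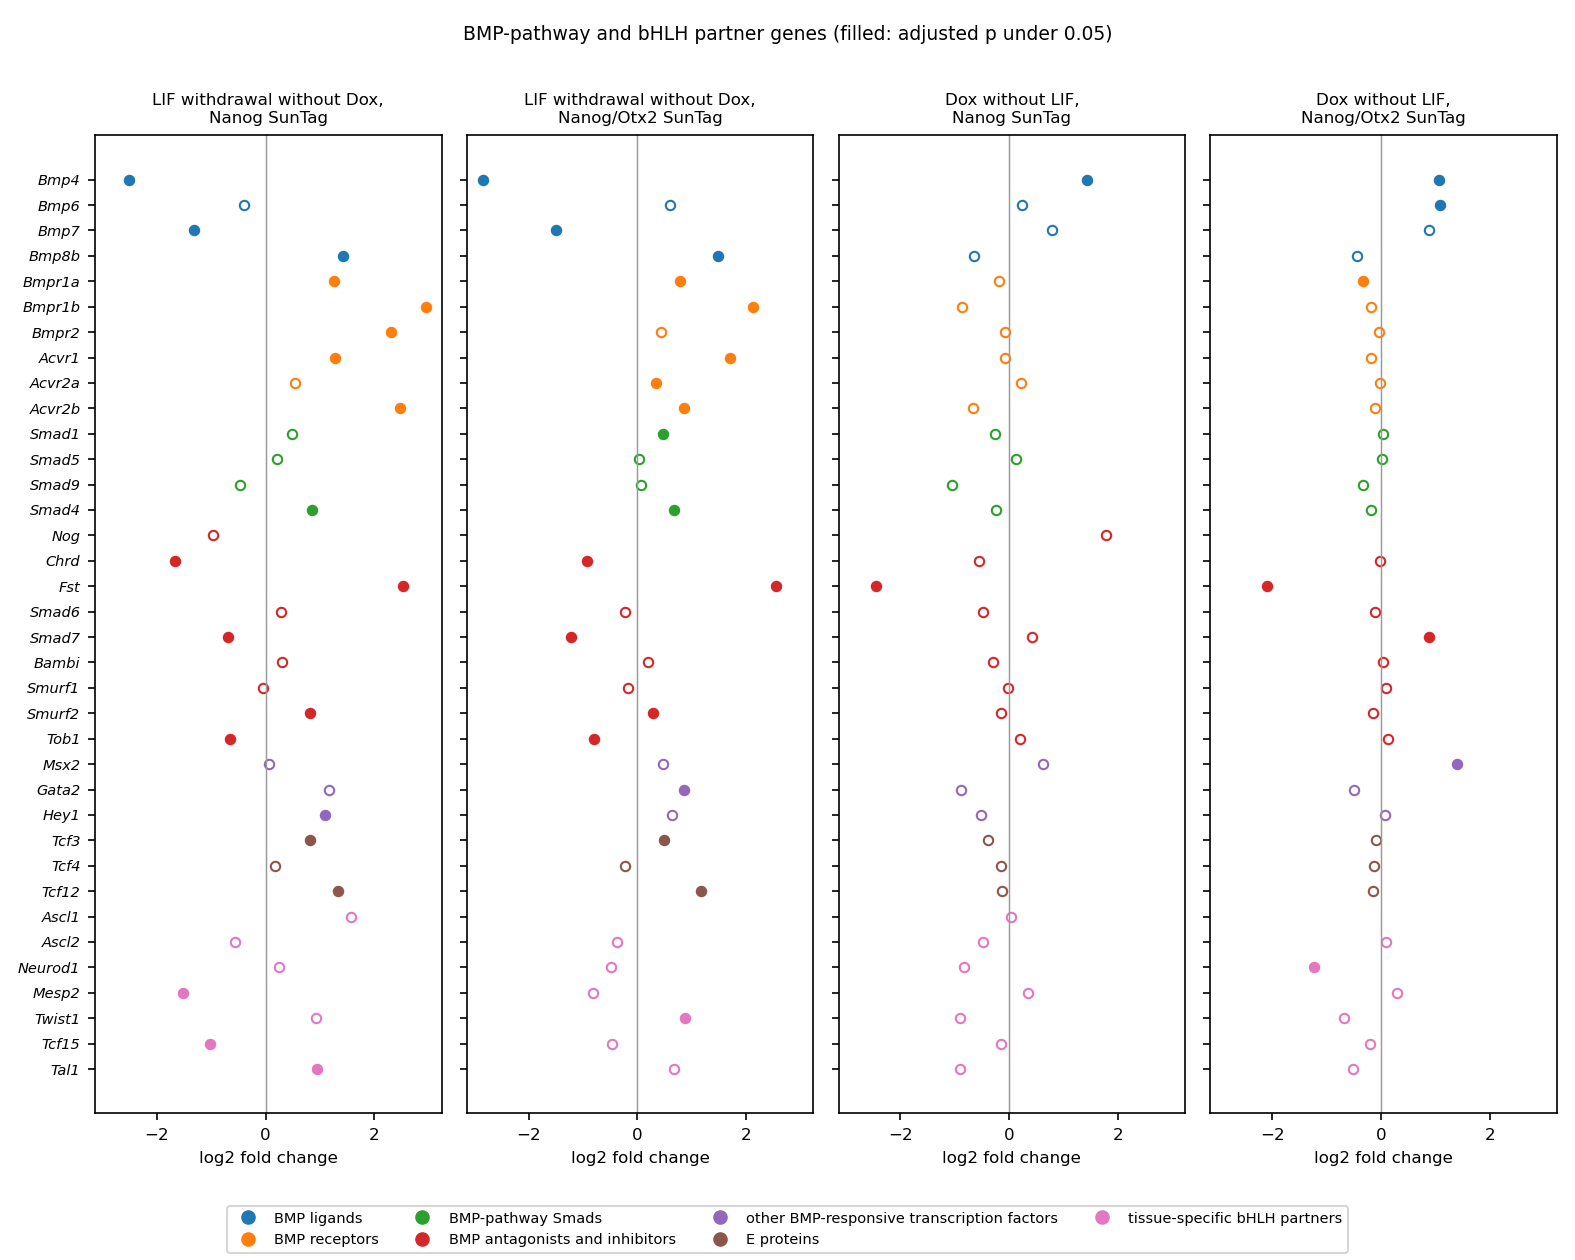
Log2 fold changes of BMP-pathway genes and bHLH partner genes, coloured by list, for LIF withdrawal without Dox and for Dox without LIF in each guide set, with filled points for an adjusted p under 0.05. Genes with at most 3 counts in every library of a SunTag condition (such as Msx1 and Dlx5) are not drawn. Receptors lie right of 0 for LIF withdrawal (medians 1.79 and 0.82), and for Dox without LIF the filled points include Bmp4 (1.43 and 1.06) and Fst (−2.44 and −2.09).

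Likeness between genes was described over the 12 condition means. Pearson's r of the mean log2(normalised count + 1) was 0.55 between Id1 and Id2, 0.55 between Id1 and Id3 and 0.11 between Id2 and Id3. By this measure Id3 ranked 941st and Id2 952nd among genes like Id1, and Id3 ranked 4791st for Id2. Of 11291 genes compared, those most like Id1 were 1110038B12Rik (0.91), Prpsap1 (0.90) and Trp53rk (0.90). Those most like Id2 were Lrrn4 (0.98), Asxl1 (0.98) and Fign (0.97), and those most like Id3 were Mgrn1 (0.98), Gna12 (0.98) and Dgcr2 (0.98). Id4 was below the mean of 100 counts set for this description. The 12 points share cell lines and guide sets, and the values carry no test.

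Estimated counts summed to between 6107512 and 92244655 per library. The targeted gene followed its labels. Nanog had means of 24924 and 84519 normalised counts without and with Dox in LIF, and of 5916 and 51805 without LIF, in Nanog SunTag cells. In 44iN cells it had 15880 with Dox, 722 at 24 h and 252 in LT cells, where reads of the disrupted locus and of the transgene cannot be told apart in gene counts. Otx2 in −LIF +Dox had a mean of 2450.3 in Nanog cells and 7173 in Nanog/Otx2 cells. ES cell markers were present in every condition.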

How the data were processed

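Stranded polyA RNA-seq libraries of 35 samples in 12 conditions were used, and 3 samples of Tg2a cells in 2i medium were not analysed here. Per the study's methods and the submitters' processing notes (CASAVA 1.8, STAR, RSEM, mm9), the authors aligned reads to mm9 and deposited estimated counts per gene, rounded to whole numbers. They also deposited a normalised signal, which is those counts divided by 1 DESeq2 size factor per library and is called the normalised count here. Versions of the aligner and counter are not given in the sources used here. Both tables list 37620 genes, and 0 columns were left unmapped.

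A gene was kept where all libraries of some condition had 10 or more normalised counts, and was tested on the estimated counts with the quasi-likelihood F-test of edgeR 4.0.16 (R 4.3.3, TMM), corrected by Benjamini and Hochberg over all genes of a model at 0.05. A model with both factors (LIF and Dox) and an interaction term was fitted to the 11 Nanog and, separately, the 15 Nanog/Otx2 libraries, all 26 were fitted together for the difference between guide sets, and 44iN (4) and LT against Tg2a (5) alone. The Id3 to Id1 ratio used a pseudocount of 1. Motifs and levels were computed in Python 3.11.15. The Id genes and all lists were chosen with earlier results of these data known. The text names the 4 Id genes, called list members (at most 4 per list and direction) in the comparisons of LIF withdrawal and of Dox without LIF, the 3 E protein genes, and the 3 genes most like each Id gene. The fits were tested on simulated data.

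Alternatives were DESeq2 1.42.0, DESeq2 size factors in edgeR, no filter, each library left out, and replicate blocks. Library names give the clone, a separate cell line, so libraries are paired by clone in the Nanog set (mean r of deviations 0.17 for the same clone and −0.16 for different clones) and by clone with its number in the Nanog/Otx2 set (0.32 and −0.11). Deviations were taken from condition means, so the second value of each set largely offsets the first and is no separate evidence of pairing. The lowest r for the same clone in the Nanog set was −0.06. No pair of libraries agreed within sampling noise. Standard errors reflect variation among these libraries, including counting error, and nothing beyond it.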

Additional observations from a re-analysis of the deposited data

Results flagged for a closer look

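In Nanog SunTag cells the response to Dox depended on LIF for 2 members when the clone was a block. The response without LIF minus that with LIF was −1.59 on the log2 scale for Id1 and −1.69 for Id3, both past the threshold of edgeR's test (adjusted p = 0.0438 and 0.0103). Id1 fell without LIF in both clones (−1.78 and −1.39), and with LIF it differed by 0.28 in C1 and −0.41 in C2. Id3 differed by −0.45 and −0.92 without LIF and by 1.29 and 0.96 with LIF. Without the block neither was called (adjusted p = 0.288 and 0.24). Nor was either called with the numbers in the table's columns as the block, chosen after seeing the data (Id1 −1.28, adjusted p = 0.197, and Id3 −1.56, adjusted p = 0.0775), so the calls depend on which block is used. The groups of 2 or 3 Nanog SunTag libraries behind these values were too small to be examined for a library that stands apart.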

How the results depend on the processing

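The calls of Id2 and Id3 on LIF withdrawal kept their direction and passed in both guide sets under DESeq2, its size factors, no filter, the blocks and every library left out. Of 248 alternative values of the 4 Id genes (library left out not counted), 234 kept their direction and side of the threshold. The replicate block moved the calls given above (Id3 with Dox in LIF to 1.10, the interaction of Id1 to −1.59 and of Id3 to −1.69 with the Nanog guide, and Id1 and Id2 with Dox in LIF to −0.65 and −0.95 with both guides), turned Id1 in induced Nanog/Otx2 cells without LIF against uninduced cells with LIF to −0.0034, and changed no other call of these pairs. With the numbers in the table's columns as the replicate block, chosen after seeing the data, none of the 3 Nanog values was called, and Id1 and Id2 with Dox in LIF were −0.62 and −0.95 with both guides. In 44iN cells libraries share only a number, with r of 0.56 within numbers. With 2 libraries a condition the value between numbers is fixed as its negative, so it says nothing about the pairing. The replicate block there gave −1.35 for Id1 (adjusted p = 8.37e-06) and 1.28 for Id3 (adjusted p = 0.0369), with 1912 of 14376 genes called. With 4 libraries, these p-values rest largely on a spread borrowed from other genes. In −LIF +Dox the direct difference between guide sets was 1.44 for Id1 and 2.21 for Id3, with 6642 genes called. DESeq2 called Id2 (0.70) and Id4 (−1.10) in LT against Tg2a cells.

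With 1 library left out, values ranged as follows. For LIF withdrawal: Id1 0.93 to 1.50 (Nanog) and Id4 −0.33 to 0.33 (both guides). For Dox without LIF: Id1 −2.13 to −1.17, Id2 −1.41 to −0.86 and Id3 −0.96 to −0.11 (Nanog), Id1 −1.49 to −1.03 and Id3 −0.25 to 0.25 (both guides). For Dox with LIF: Id1 −0.34 to 0.0039 and Id3 0.49 to 1.21 (Nanog), Id3 0.90 to 1.47 and Id4 −0.47 to 0.088 (both guides). For induced cells without LIF against uninduced cells with LIF: Id1 −0.83 to 0.014, Id3 1.27 to 1.79 and Id4 −0.21 to 0.19 (Nanog), and Id1 −0.088 to 0.38 (both guides). For the difference between guide sets: Id1 −0.15 to 0.81, Id2 −0.45 to 0.093, Id3 0.0020 to 0.87 and Id4 −0.25 to 0.22. For Dox in 44iN: Id1 −1.56 to −1.07, Id2 −1.34 to −0.085, Id3 0.80 to 2.03 and Id4 −0.22 to 0.91. For LT against Tg2a: Id1 1.16 to 1.70, Id3 −1.10 to 0.023 and Id4 −1.29 to −0.96.

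Counts of called genes moved more. With DESeq2 they were 1509 for Dox without LIF, 587 for Dox with LIF and 877 for the interaction (Nanog), 41 for the difference between guide sets, 141 in 44iN and 2294 in LT against Tg2a. Without a filter they were 151 for Dox with LIF (Nanog) and 434 in 44iN. With the replicate block they were 1375, 293 and 709 (Nanog), 5215, 6401 and 3407 (both guides) and 10 for the difference between guide sets, and with the column numbers 1 for Dox with LIF (Nanog) and 5398, 6519 and 3331 (both guides). Leaving out 1 library gave 277 (−LIF −Dox C1-1) to 1617 (+LIF −Dox C1-1) for Dox without LIF, 3 (+LIF +Dox C1-1) to 142 (+LIF −Dox C1-1) for Dox with LIF, 81 to 481 for the interaction and 2648 to 6744 for induced against uninduced cells (Nanog), 1756 to 3007, 1962 to 4036 and 870 to 1847 for the first 3 of these (both guides), 0 to 8 for the difference between guide sets, 61 (−Dox 1) to 3413 (+Dox 1) in 44iN and 19 (LT 1) to 2618 (Tg2a 3) in LT against Tg2a. The causes of these changes were not tested. The few libraries per group and the low counts of Id4 limit what could be called.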
